A study of Arabidopsis thaliana with 12 samples.

Results

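The genes described here are the leaf genes of a comparison between Arabidopsis thaliana seedlings grown on the International Space Station and seedlings grown on the ground. Every gene in the deposited leaf table was taken, which gave 608 of the 656 genes in the leaf and root tables together. The root table holds 65 genes, and 17 genes are in both. The leaf comparison used 6 of the 12 libraries of the series, 3 from spaceflight plates and 3 from ground control plates. All plants were wild type of the Wassilewskija (WS) ecotype and 11 days old, and none carried a transgene or received a treatment. Both groups grew on plates of nutrient medium set with Phytagel, a gellan gum, under constant light in a Veggie plant growth unit, the flight unit on the station and the control unit in a chamber at Kennedy Space Center that followed the station's environment, and both were preserved in RNAlater at harvest. The control run followed the flight run with a delay that the paper and the labels state differently. A library pooled the RNA of 3 plants of 1 plate, so the plate is the replicate and plants within a plate are not counted. Spaceflight here means all conditions of growth on the station, not weightlessness alone, and the groups also differ in launch, date of growth and hardware unit, which cannot be told apart from it.

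The leaf table lists only genes that the authors had already selected as changed by at least 2-fold in these same libraries. It holds no unchanged gene, a gene that is not in the table was not analysed here and nothing is read from its absence, and the tests below describe the size and the plate-to-plate agreement of each difference and are not independent evidence that it exists. The organ of each library was taken from its title, since another label field exchanges leaf and root in 2 of the 4 groups. Chlorophyll-binding protein genes of the root table sorted the libraries as the titles do: LHCB4.2 measured 1201 to 2532 FPKM (mapped fragments scaled for transcript length and for library size) in the 6 libraries titled leaf and 16.7 to 58.6 FPKM in the 6 titled root. Another such gene, LHCB2.2, lay at 2202, 2536 and 2421 FPKM in ground control leaves and at 584, 1795 and 1493 FPKM in spaceflight leaves. The groups overlapped for the other such genes. LHCB4.2 lay at 2058, 2311 and 2118 FPKM in ground control leaves and at 1201, 2446 and 2532 FPKM in spaceflight leaves. LHCB1.2 lay at 9418, 12981 and 11518 FPKM in ground control leaves and at 4437, 9911 and 9459 FPKM in spaceflight leaves. Spaceflight plate 1 was the lowest leaf library for each of them. Of 18 root marker genes that were looked for, 1 was listed, BGLU21. It did not pass the test described below (log2 difference 0.62 ± 0.30, limma adjusted p = 0.0656). Every spaceflight leaf library lay above every ground control leaf library for it. None of 8 shoot meristem markers was listed, and of 6 guard cell markers 1 was, ALMT12, also without a call. The leaves are mixtures of cell types, so fewer cells of a type and less RNA per cell cannot be told apart.

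Leaves turn light into sugar by day and live on reserves when sugar runs short. When sugar or light is short, the kinase SnRK1 drives a programme that breaks down sugars, amino acids and proteins. Leaves also defend themselves through salicylic acid, which acts against biotrophic pathogens and in systemic acquired resistance, and through jasmonate and ethylene, which act against necrotrophs and wounding. Circadian clock proteins form a loop of morning and evening repressors that times these programmes across the day, and heat shock factors switch on chaperones that refold proteins. Transcripts of all of these groups were in the leaf table.

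Differences were taken on log2(FPKM + 1) and are spaceflight minus ground control, with the standard error (SE) from limma. Sizes by which a gene rose or fell, and differences given with ±, are on this log2 scale with that SE, unless FPKM is named. A gene was called when its Benjamini-Hochberg adjusted p over the 608 genes was under 0.05 and its size reached 2-fold. With 1 added to each FPKM, changes of genes near 0 come out too small. Of the 608 genes, 453 were called, 353 higher and 100 lower in spaceflight leaves. The background against which the gene groups below are read is therefore 74.5% of genes called in either direction, 58.1% higher and 16.4% lower. The groups were written with earlier results of these data known. Their counts and medians beside the background are a description and not an independent test. Of the 155 genes without a call, 40 had an adjusted p of 0.05 or more and 115 lay under 2-fold. The median difference was 1.39 for genes called higher and −1.28 for genes called lower. Differences of at least 2 on the log2 scale were found for 61 genes called higher and 23 called lower. The spaceflight and ground control values did not overlap for 414 genes that were higher (68.1%) and for 144 that were lower (23.7%).

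**Figure D1:**
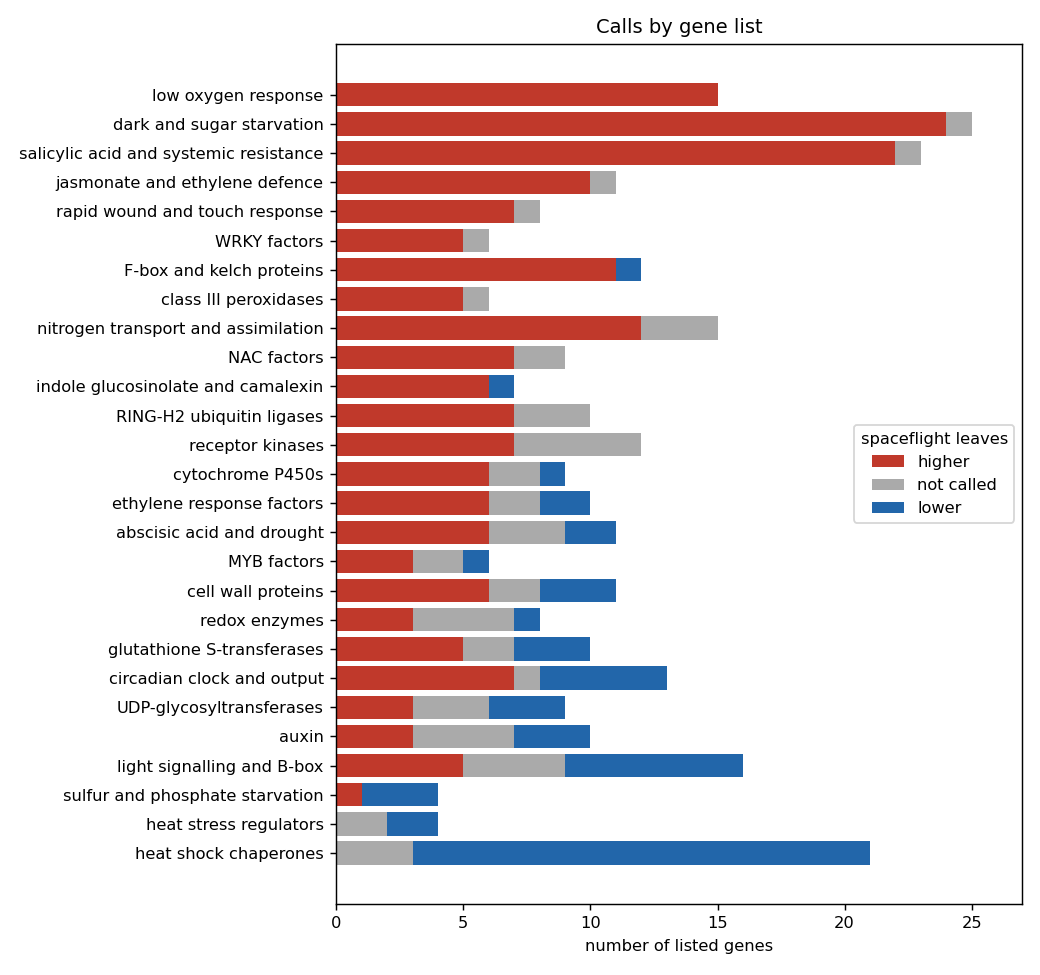
Members of each gene group in the leaf table that were called higher, called lower or not called in spaceflight leaves by limma (3 spaceflight against 3 ground control libraries), as numbers of genes. Groups of at least 4 listed genes are drawn. The bars of low oxygen response, salicylic acid and dark and sugar starvation are almost wholly genes called higher, and the heat shock chaperones hold 18 called lower and 0 called higher.

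Transcripts of the salicylic acid and systemic resistance group were higher in spaceflight leaves. Of 36 genes written for this group, 23 were in the leaf table. Of these, 22 were called higher (95.7%, against 58.1% over all genes), 0 lower and 1 neither. The group's median difference was 1.67, against 1.09 over all 608 genes. The members ranged from signal to effector genes. ALD1 and FMO1 make pipecolic acid and its active N-hydroxy form, the mobile signal of systemic resistance. FMO1 (AT1G19250, chr1:6650476-6653195) measured 0.11, 0.020 and 0.30 FPKM in ground control plates 1, 2 and 3 and 6.04, 4.75 and 13.1 FPKM in spaceflight plates 1, 2 and 3, and all values below keep this order. It was close to 0 in every ground control plate and above 4 FPKM in every spaceflight plate, a difference of 2.87 ± 0.35 (SE; limma adjusted p = 8.14e-05). ALD1 (AT2G13810) gave 0.13, 0 and 0.080 FPKM on the ground and 4.01, 3.04 and 10.4 FPKM in spaceflight, and it rose by 2.52 ± 0.37.

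Upstream regulators of salicylic acid had smaller differences. SARD1, a transcription factor that switches on salicylic acid synthesis, went from 5.05 ± 1.25 to 16.7 ± 7.45 FPKM (mean ± SD, n = 3), and PAD4, a lipase-like protein of basal immunity, from 9.32 ± 0.43 to 25.5 ± 6.16 FPKM. The lowest spaceflight plate lay above the highest ground control plate for both. EDS5, which exports the salicylic acid precursor from the plastid, rose by 1.18 ± 0.31, and without spaceflight plate 3 it lay at 0.93 and lost its call. The only synthesis enzyme listed, ICS2, the minor isochorismate synthase, was not called and lay at −0.45 ± 0.31 (limma adjusted p = 0.173).

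WRKY70 and WRKY54, paired transcription factors that act downstream of salicylic acid, both rose. WRKY70 measured 51.2, 86.2 and 47.1 FPKM on the ground and 172, 246 and 291 FPKM in spaceflight, a difference of 1.94 ± 0.33. WRKY54 measured 6.43, 6.54 and 4.56 FPKM on the ground and 24.9, 21 and 24.8 FPKM in spaceflight, a difference of 1.85 ± 0.28 with the 3 spaceflight plates close together. The receptor NPR3 rose by 1.16 ± 0.36, and NIMIN-2, which binds the coactivator NPR1, by 1.68 ± 0.32. NPR3 lost its call without ground control plate 1 (1.04) or without spaceflight plate 3 (0.87).

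Effector genes rose too, with a wide spread between plates. PR1 (AT2G14610, chr2:6241640-6242541), the standard marker of salicylic acid signalling, measured 41.1, 29.2 and 34.8 FPKM on the ground and 119, 118 and 604 FPKM in spaceflight. Spaceflight plates 1 and 2 were near each other and plate 3 was far higher, so that the spaceflight mean of 280.3 ± 281 FPKM rests largely on that plate. Its difference was 2.52 ± 0.52 (limma adjusted p = 0.0017). LURP1, which takes part in resistance to an oomycete, was more even, at 47, 33.1 and 41.3 FPKM on the ground and 199, 185 and 274 FPKM in spaceflight. Enzymes that remove or store salicylic acid or N-hydroxypipecolic acid rose as well. They were DMR6, a hydroxylase, by 1.67 ± 0.36, and the glucosyltransferases UGT76B1 and UGT74F2 by 1.83 ± 0.42 and 1.04 ± 0.39. UGT74F2 lost its call without ground control plate 1 or spaceflight plate 2, at 0.87 for each, or without spaceflight plate 3, at 0.74. GRXS13, a glutaredoxin, rose by 2.58 ± 0.49. In the group, spaceflight plate 3 was the highest spaceflight library for 19 of 23 genes. Over all genes higher in spaceflight it was so for 78.5%. Without that plate 17 members were called higher in place of 22.

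Jasmonate and ethylene defence genes were also higher. Of 28 written, 11 were listed, and 10 were called higher (90.9%, against 58.1% over all genes) and 0 lower. The plant defensin gene PDF1.2C (AT5G44430) measured 92.6, 83.8 and 111 FPKM on the ground and 827, 230.1 and 1290.5 FPKM in spaceflight, and its neighbour PDF1.2A (AT5G44420) 159.7, 184 and 230.3 FPKM on the ground and 623, 382 and 1001 FPKM in spaceflight. For both genes spaceflight plate 3 was highest and plate 2 lowest, and every spaceflight plate lay above every ground control plate. Their coding sequences are 93.4% identical, so the division of reads between them is uncertain. CHI-B, a basic chitinase, rose from 5.03 ± 0.462 to 25 ± 11.9 FPKM, and HEL, a chitin-binding protein, by 1.34 ± 0.35, a call that was lost without spaceflight plate 3, at 0.99. CYP94C1 and SOT15, which inactivate jasmonates by oxidation and by sulfation, rose by 1.84 ± 0.40 and 1.04 ± 0.29, and the repressor TIFY9 (JAZ10) by 1.44 ± 0.35. SOT15 lay at 0.84 and lost its call without spaceflight plate 1. OSM34, an osmotin-like protein, measured 0.23, 0.29 and 0.88 FPKM on the ground and 0.68, 1.01 and 18.9 FPKM in spaceflight. Only spaceflight plate 3 was high, and the gene was not called (difference 1.50 ± 0.71, limma adjusted p = 0.0596).

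Camalexin and indole glucosinolates are sulfur-containing defence compounds made from tryptophan. Of 15 genes written, 7 were listed, with 6 called higher (85.7%) and 1 lower (14.3%), against 58.1% and 16.4% over all genes. CYP71B15 (AT3G26830), which completes camalexin, measured 2.11, 1.52 and 1.22 FPKM on the ground and 9.38, 11.4 and 30.5 FPKM in spaceflight, without overlap and highest in plate 3 (difference 2.62 ± 0.40). The 2 MYB regulators of indole glucosinolates went in opposite directions. MYB51 rose from 12.4 ± 6.0 to 29.6 ± 10.3 FPKM and MYB34 fell from 17.3 ± 3.2 to 7.87 ± 3.14 FPKM. CYP81F2 and IGMT1, which modify the indole ring of these compounds, rose by 1.09 ± 0.38 and 1.29 ± 0.30. NIT2, a nitrilase, measured 0.22, 0.27 and 0.71 FPKM on the ground and 1.24, 1.13 and 15 FPKM in spaceflight, and its call was lost without spaceflight plate 3 or without ground control plate 1. Without spaceflight plate 3 this group kept 3 calls in place of 7, and NIT2 lay at 0.66, MYB51 at 0.98, MYB34 at −0.88 and CYP81F2 at 0.74. Without ground control plate 3, MYB34 (−0.96) and CYP81F2 (0.95) lost their calls, and without ground control plate 1, NIT2 (1.52) and CYP81F2 (1.10) did.

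**Figure D2:**
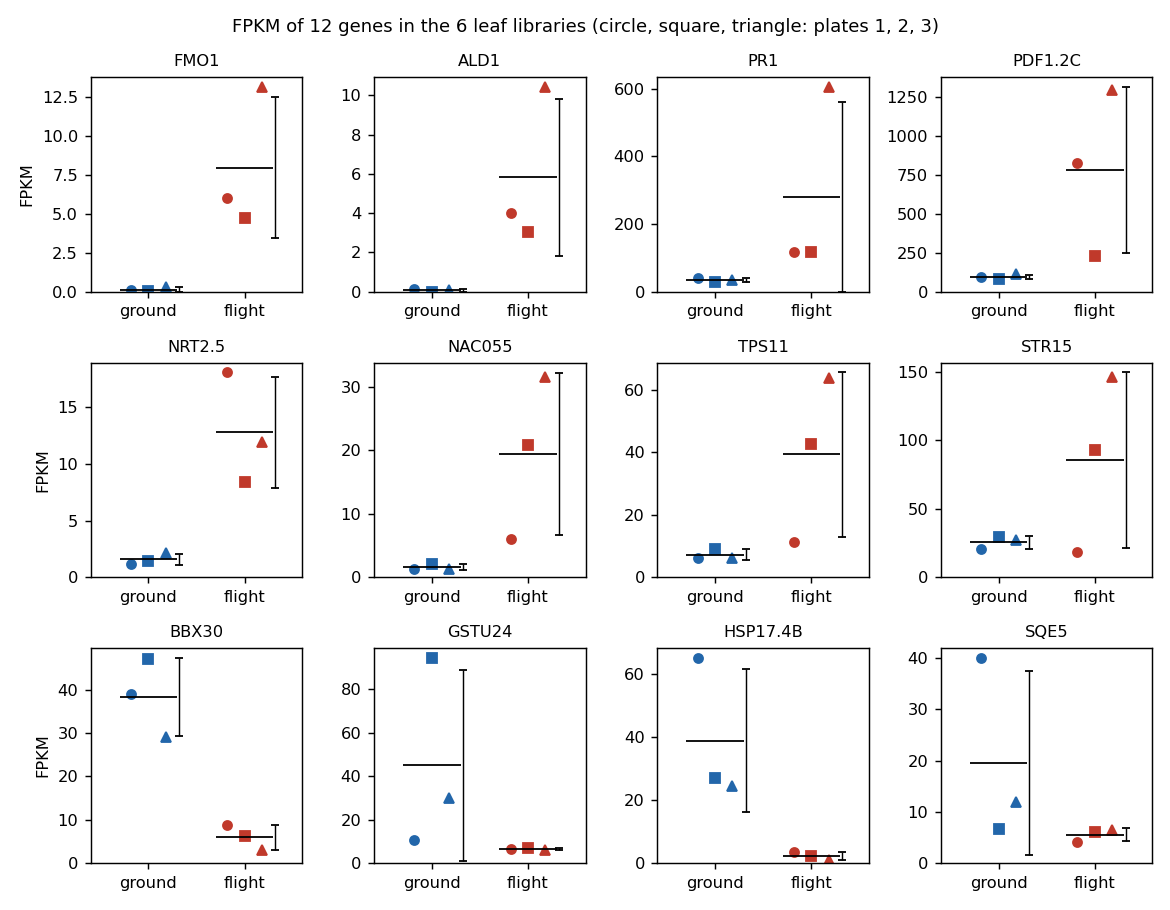
FPKM of 12 leaf genes in each of 3 ground control and 3 spaceflight plates, 1 panel a gene, with points for plates, a line for the mean and a bar for the SD. PR1 and PDF1.2C differ between spaceflight plates, STR15 in spaceflight plate 1 lies below all ground control plates, and GSTU24 and SQE5 vary mainly between ground control plates.

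Rapid responses to wounding and touch are known to peak within minutes to an hour. Of 24 such genes written, 8 were listed, and 7 were called higher (87.5%, against 58.1% over all genes) and 0 lower. ERF1A, an ethylene response factor, measured 41.8, 118 and 30.0 FPKM on the ground and 121, 201 and 232 FPKM in spaceflight, and its highest ground control plate was just below its lowest spaceflight plate. ATL31, a ubiquitin ligase of carbon and nitrogen balance, rose by 1.87 ± 0.38, the kinase gene MKK9 by 1.60 ± 0.36 and WRKY22 by 1.40 ± 0.36. In all 8 genes spaceflight plate 3 was the highest and plate 1 the lowest spaceflight library, and ground control plate 2 was the highest ground control library. Over all genes higher in spaceflight, these shares were 78.5%, 65.2% and 52%. The calmodulin-like touch gene CML12 overlapped between groups, at 222, 367 and 227 FPKM on the ground and 334, 545 and 914 FPKM in spaceflight, and it lost its call without ground control plate 1 (0.93) or 3 (0.94) or spaceflight plate 3 (0.69). Without ground control plate 3 or spaceflight plate 3, 5 members were called.

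The dark and sugar starvation group was higher, with 24 of its 25 listed members called higher (30 were written) and a median of 1.53. This is 96% called higher, against 58.1% over all genes. AT3G15450, an aluminium-induced-like protein of the starvation response, had the largest difference. It measured 65.9, 146 and 114 FPKM on the ground and 573, 1041 and 1345 FPKM in spaceflight, a difference of 3.16 ± 0.39 (limma adjusted p = 8.14e-05). AT1G80440, a kelch-repeat F-box protein that targets phenylalanine ammonia-lyase, rose from 16.3 ± 7.33 to 134 ± 67.2 FPKM. RFS6, an enzyme of raffinose metabolism, rose by 2.29 ± 0.44, BGAL4, a beta-galactosidase, by 2.05 ± 0.42, and ATG8E, an autophagy protein, by 1.22 ± 0.30.

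Plates differed in this group. The median difference from the ground control mean was 0.94 in spaceflight plate 1, 1.83 in plate 2 and 2.15 in plate 3. Plate 1 was the lowest spaceflight library for 23 of 25 genes, against 65.2% of all genes higher in spaceflight. TPS11, a class II trehalose phosphate synthase, measured 6.33, 9.18 and 6.18 FPKM on the ground and 11.4, 42.6 and 63.9 FPKM in spaceflight. STR15 (SEN1), a dark-induced senescence marker, measured 20.4, 29.2 and 27.3 FPKM on the ground and 18.5, 92.9 and 147 FPKM in spaceflight, so that plate 1 lay below every ground control plate and plates 2 and 3 well above. Its call, at a difference of 1.29 ± 0.58, was lost when any of 5 libraries was left out, all but spaceflight plate 1, at 0.70 to 1.39. ASN1, the asparagine synthetase of dark-grown leaves, was the member without a call.

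NAC transcription factors, a group picked by name that includes some of leaf senescence, showed the same split between plates. Of 9 NAC genes listed, 7 were called higher (77.8%, against 58.1% over all genes) and 0 lower. NAC055 (AT3G15500) measured 1.37, 2.1 and 1.32 FPKM on the ground and 6.02, 20.8 and 31.5 FPKM in spaceflight, a difference of 2.73 ± 0.47. NAC029 (NAP) measured 5.07, 6.85 and 3.33 FPKM on the ground and 11.4, 39.5 and 53.7 FPKM in spaceflight, and ATNAC2 (ORE1) 2.63, 7.02 and 5.38 FPKM on the ground and 7.58, 30.9 and 37.9 FPKM in spaceflight. Every spaceflight plate lay above every ground control plate for all 3 genes, and spaceflight plate 1 was the lowest spaceflight library for each. Without spaceflight plate 3, 4 NAC genes were called.

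Nitrogen transport and assimilation genes were mostly higher, with 12 of 15 listed members called higher and 0 lower (30 were written). This is 80% called higher, against 58.1% over all genes. NRT2.5 (AT1G12940, chr1:4416315-4418590), a high-affinity nitrate transporter of nitrogen-starved plants, measured 1.19, 1.44 and 2.11 FPKM on the ground and 18.1, 8.41 and 12 FPKM in spaceflight. It did not overlap, was highest in plate 1 and differed by 2.38 ± 0.33 (limma adjusted p = 0.000163). Its partner NRT3.1 rose by 1.06 ± 0.33, the nitrate reductase gene NIA1 from 68.8 ± 16.3 to 172 ± 53.5 FPKM, the glutamine synthetase gene GLN1-4 by 1.50 ± 0.30, and the amino acid transporter LHT1 by 1.16 ± 0.34. LHT1 lost its call without ground control plate 1 (0.88), and NRT3.1 without spaceflight plate 1 (0.83) or 3 (0.97) or ground control plate 2 (0.999). BT1, a scaffold protein related to BT2, was split between plates, at 31.8, 27.6 and 21.8 FPKM on the ground and 34.2, 99.2 and 149.9 FPKM in spaceflight. The ammonium transporters differed in direction: AMT1-1 rose from 91.8 ± 10.3 to 211 ± 24.2 FPKM, and AMT1-2 measured 155, 51.2 and 55.1 FPKM on the ground and 41.9, 41.3 and 38.1 FPKM in spaceflight without a call. NPF6.4, a nitrate transporter, was also lower without a call (−0.96 ± 0.34). Ground control plate 1 was the highest library for both.

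Of 22 sulfur and phosphate starvation genes written, 4 were listed. SDI1, a repressor of glucosinolate synthesis induced by low sulfur, fell from 56 ± 12.9 to 24.1 ± 1.27 FPKM, and SAT4, a serine acetyltransferase, fell by 1.10 ± 0.32. PS2, a phosphatase of phosphate-starved plants, fell by 1.03 ± 0.34, while GDPD2, a phosphodiesterase, rose by 1.57 ± 0.38. Only 2 of the 4 kept their calls without ground control plate 1, where SAT4 and PS2 both lay at −0.90, or without spaceflight plate 2, at −0.93 and −0.91. PS2 also lost its call without ground control plate 3 (−0.93) or spaceflight plate 1 (−0.86).

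Clock genes changed in both directions. Of 30 written, 13 were listed, and 7 were called higher (53.8%), 5 lower (38.5%) and 1 neither. Over all genes 58.1% were called higher and 16.4% lower, so only the lower share stood apart. The pseudo-response regulators APRR7 and APRR9, which repress morning genes, fell, with APRR7 going from 37.2 ± 14 to 16.3 ± 4.57 FPKM. The Myb-like factors RVE1 and RVE2 rose, RVE1 by 1.11 ± 0.37. RVE1 lost its call without ground control plate 3 (0.73) or spaceflight plate 3 (0.97), and APRR7 without ground control plate 3 (−0.85) or spaceflight plate 1 (−0.88). BOA, a component related to LUX of the evening complex, rose from 3.84 ± 0.274 to 10.6 ± 1.42 FPKM, and JMJD5, an evening-phased demethylase-like protein, measured 6.48, 5.43 and 10.7 FPKM on the ground and 52.3, 24.3 and 18.9 FPKM in spaceflight. AT5G64170 (LNK1), a coactivator of the clock, fell from 48.5 ± 4.21 to 16.3 ± 6.78 FPKM, and CDF1, which delays flowering, from 26.5 ± 1.41 to 11.6 ± 2.16 FPKM. Spaceflight plate 1 was farthest from the ground for JMJD5 and AT5G64170, unlike most genes of the table. APRR5 and COR27, a cold-regulated clock repressor, were called higher but their groups overlapped: APRR5 measured 1.71, 4.33 and 8.74 FPKM on the ground and 13.7, 11 and 7.73 FPKM in spaceflight. COR27 measured 1.43, 3.38 and 7.7 FPKM on the ground and 16.6, 8.34 and 6.92 FPKM in spaceflight and lost its call without ground control plate 1 (0.82) or without spaceflight plate 1 (0.93). APRR5 lost its call without the same plates, at 0.68 and 0.98. Without spaceflight plate 1, where CDF1 was also lost at −0.996, 5 clock genes were called higher and 3 lower. Time of day at harvest was not given for single plates, and its part in the clock values was not tested.

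The promoter of 1 of these clock genes, BOA, is shown because it holds the evening element, the sequence through which morning clock factors repress evening genes. The run is the 250 bases before the gene start in RefSeq's TAIR10.1 annotation, 5′ to 3′ on the gene's strand, and capitals mark matches to AAAATATCT on either strand.

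BOA (chr5:24003638-24003887, plus strand): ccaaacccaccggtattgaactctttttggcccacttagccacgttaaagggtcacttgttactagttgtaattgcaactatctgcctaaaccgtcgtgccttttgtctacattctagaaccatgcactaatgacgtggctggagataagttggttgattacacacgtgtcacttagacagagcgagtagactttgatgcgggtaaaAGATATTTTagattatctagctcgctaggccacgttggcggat

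An evening element was found in 3 of 13 listed clock promoters (23.1%), and in 2.36% of the promoters of 27443 protein-coding genes. A G-box (CACGTG) was found in 5 of 13 (38.5%), against 6.49% of all promoters. Genes with the G-box moved both ways: APRR7 and APRR9 fell, and BOA, RVE1 and RVE2 rose. A match is a run of letters and not a shown binding site.

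The starvation group is shown in the same way for TATCCA, a motif known from sugar-repressed amylase promoters of rice, with capitals for matches on either strand.

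AT1G80440 (chr1:30241202-30241451, plus strand): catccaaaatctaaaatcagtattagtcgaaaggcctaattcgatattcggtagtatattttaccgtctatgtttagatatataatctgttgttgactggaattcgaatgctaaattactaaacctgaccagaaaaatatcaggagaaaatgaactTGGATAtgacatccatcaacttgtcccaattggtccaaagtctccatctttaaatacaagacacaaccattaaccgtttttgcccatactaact

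AT2G20670 (chr2:8913748-8913997, minus strand): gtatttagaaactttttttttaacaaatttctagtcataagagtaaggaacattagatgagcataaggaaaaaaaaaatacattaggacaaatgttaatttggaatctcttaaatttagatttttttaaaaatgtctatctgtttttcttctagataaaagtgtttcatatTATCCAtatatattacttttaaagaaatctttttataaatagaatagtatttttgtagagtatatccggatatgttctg

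TATCCA or its reverse complement was found in 9 of 25 starvation promoters (36%), in 25.2% of the 349 promoters of genes called higher, and in 13.6% of all promoters. It was not particular to this group. The share was 37.5% for light signalling genes, and 40% for RING-H2 ligases and for ethylene response factors. For WRKY factors and for F-box and kelch genes it was 50%. For the heat shock and salicylic acid groups, the motif of the group's own transcription factors was no more frequent than over all genes in the stretch read before the gene start. A heat shock element (GAANNTTC) was found in 1 of 21 heat shock chaperone promoters (4.76%, against 9.55% of all). The annotated gene starts of these chaperones lie 0 to 534 bases before the coding start, with a median of 246. A W-box (TTGACC or TTGACT) was found in 5 of 23 salicylic acid promoters (21.7%, against 28.4% of all). Bases after the gene start, or upstream of the stretch read, were not searched. The counts for the heat shock and salicylic acid groups therefore cannot show whether their genes lack the motif. Among groups noticed after all shares were seen, 8 of 12 receptor kinase promoters held a W-box (66.7%). So did 7 of 10 glutathione S-transferase promoters (70%) and 6 of 8 redox enzyme promoters (75%). Over all genes of the leaf table the share was 34.9%. The 3 promoters printed were picked after these shares were known. AT2G20670 is a gene of the starvation group that rose by 2.48 ± 0.43.

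Light signalling genes, many of them B-box zinc finger factors, also split. Of 32 written, 16 were listed, with 5 called higher (31.2%), 7 lower (43.8%) and 4 neither, against 58.1% higher and 16.4% lower over all genes. The small B-box proteins BBX30 and BBX29, known to restrain or tune light responses, fell most. BBX30 (AT4G15248) measured 39, 47 and 29 FPKM on the ground and 8.73, 6.16 and 2.99 FPKM in spaceflight, and BBX29 (AT5G54470) 19.1, 19.1 and 12.7 FPKM on the ground and 3.02, 3.06 and 1.31 FPKM in spaceflight. No plate overlapped, and spaceflight plate 3 was the lowest for both. COL9, which delays flowering, rose from 9.19 ± 0.715 to 32.1 ± 5.41 FPKM and BBX20, a promoter of light responses, by 1.57 ± 0.30. GLK1, a regulator of chloroplast development, fell from 120.5 ± 15.4 to 45 ± 1.97 FPKM with the 3 spaceflight plates at 47.1, 44.7 and 43.2 FPKM. The 5 higher calls became 2 without spaceflight plate 2 and 3 without ground control plate 1 or spaceflight plate 3. None of the 22 photosynthesis genes looked for was in the leaf table, which does not show whether they changed.

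The heat shock chaperones were lower, with 18 of 21 listed members called lower and 0 higher (36 were written; background 16.4% lower), and a median of −2.24. HSP17.4B (AT1G54050), a small heat shock protein, measured 65, 27.1 and 24.4 FPKM on the ground and 3.6, 2.29 and 1.06 FPKM in spaceflight, a difference of −3.52 ± 0.41 (limma adjusted p = 6.74e-05). CLPB1 (HSP101), the disaggregase needed for heat tolerance, measured 73.5, 29.8 and 31.7 FPKM on the ground and 7.23, 5.94 and 5.08 FPKM in spaceflight. HSP81-1, a heat-inducible HSP90, measured 125, 46.3 and 67.7 FPKM on the ground and 9.97, 11.1 and 10.5 FPKM in spaceflight. Ground control plate 1 was the highest ground control library for 20 of the 21 genes, against 54.3% of all genes lower in spaceflight. The mitochondrial HSP23.5 fell from 42.1 ± 13 to 4.57 ± 0.85 FPKM, and the coactivator MBF1C from 125 ± 20.6 to 38.6 ± 7.23 FPKM. Taken against each ground control plate alone, the group's median was −2.61 for plate 1, −1.92 for plate 2 and −2.02 for plate 3. Without ground control plate 1 or without spaceflight plate 3, 16 members were called lower. FKBP62, BAG6 and ERDJ3A were not called and lay at −0.92 ± 0.29, −0.89 ± 0.27 and −0.96 ± 0.32.

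The low oxygen response was called higher in all 15 members listed of 44 written (100%, against 58.1% over all genes). PCO1, a plant cysteine oxidase that marks oxygen-sensing factors for breakdown, measured 1.73, 2.2 and 2.47 FPKM on the ground and 13.1, 16.3 and 26.4 FPKM in spaceflight. AT3G10040 (HRA1), which attenuates the response, measured 1.91, 4.21 and 2.65 FPKM on the ground and 24.7, 32.4 and 48 FPKM in spaceflight, and AHB1, a non-symbiotic haemoglobin, 6.05, 12.4 and 8.53 FPKM on the ground and 29.2, 33.5 and 58.6 FPKM in spaceflight. Neither group of plates overlapped the other for these 3 genes, and spaceflight plate 3 was the highest for each. ADH1, alcohol dehydrogenase, rose less, from 5.61 ± 0.65 to 15.4 ± 2.88 FPKM. On average these 4 genes were higher in ground control roots than in ground control leaves, with root means of 19.9 FPKM for PCO1, 9.1 FPKM for AT3G10040, 45.9 FPKM for AHB1 and 19.2 FPKM for ADH1. Over the table, 321 genes were higher in every ground control root library than in every ground control leaf library, and 188 of these were called higher (58.6%) and 17 lower (5.3%) in spaceflight leaves. Another 184 genes were lower in every root library, and 92 of these were called higher (50%) and 66 lower (35.9%). The share called higher among the root-high genes is near the background of 58.1%, and their share called lower is under the background of 16.4%. Among the root-low genes the share called lower is above it. The ground control leaf libraries serve both for this sorting and as the baseline of the difference. These shares are therefore partly fixed by the sorting, and nothing is read from them. The part of root tissue in these values was not tested beyond the root markers given above.

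Detoxification enzymes moved in both directions. Of 10 glutathione S-transferases listed, 5 were called higher (50%) and 3 lower (30%), against 58.1% and 16.4% over all genes. The phi-class members rose: GSTF2 measured 223, 343 and 268 FPKM on the ground and 559.7, 739 and 1394 FPKM in spaceflight, and GSTF6 and GSTF7 rose by 1.55 ± 0.33 and 1.67 ± 0.34. GSTF6 and GSTF7 are 94.3% identical in coding sequence, and GSTF2 is 94.5% identical to AT2G02930, so reads may have been divided wrongly. Tau-class members divided, with GSTU4 rising from 2.19 ± 0.646 to 12 ± 6.85 FPKM and GSTU17 falling from 163 ± 78.2 to 73.1 ± 1.12 FPKM. Without ground control plate 1 GSTU17 lay at −0.68, against −1.05, and lost its call. GSTU24 measured 10.6, 94.3 and 29.9 FPKM on the ground and 6.49, 6.83 and 6.04 FPKM in spaceflight. Its spaceflight plates were nearly equal and its ground control plates ranged widely, with plate 2 the highest. Its neighbour GSTU25, 79.5% identical, was not called. Among 9 genes named as UDP-glycosyltransferases, 3 were called higher (33.3%) and 3 lower (33.3%). Of the lower ones, GBSS1 makes amylose and is no small-molecule glycosyltransferase. GBSS1 lost its call without ground control plate 1 (−0.74) or spaceflight plate 1 (−0.88). UGT73C1, which conjugates cytokinins and xenobiotics, fell from 6.1 ± 1.05 to 0.85 ± 0.182 FPKM. Of 9 cytochrome P450s listed, 6 were called higher (66.7%) and 1 lower (11.1%), near the shares over all genes. The lower one, CYP81D11, a xenobiotic-responsive member, fell from 14.4 ± 5.11 to 3.99 ± 1.68 FPKM.

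Other hormone groups were smaller. Of 11 abscisic acid and drought genes listed, 6 were called higher (54.5%) and 2 lower (18.2%), close to the 58.1% and 16.4% over all genes, and 5 were called without ground control plate 3. The synthesis gene NCED3 was not called (−0.56 ± 0.31, limma adjusted p = 0.0985), the importer ABCG40 measured 0.67, 1.02 and 0.43 FPKM on the ground and 2.01, 3.12 and 12.8 FPKM in spaceflight, and the drought-induced genes PXG3 (RD20) and GOLS1 fell, PXG3 from 17.1 ± 5.56 to 6.63 ± 0.462 FPKM. PXG3 lost its call without ground control plate 1 (−0.98), and GOLS1 without ground control plate 3 (−0.99) or spaceflight plate 1 (−0.98). Of 10 auxin genes listed, 3 were called higher (30%) and 3 lower (30%). AT4G34790, a small auxin up RNA gene, rose from 4.79 ± 1.71 to 24.4 ± 3.76 FPKM. The F-box proteins AUF1 and AUF2, close relatives that act on auxin transport in roots, went opposite ways, with AUF1 falling from 52.9 ± 7.04 to 21.1 ± 2.25 FPKM and AUF2 rising from 1.5 ± 1.11 to 5.5 ± 0.899 FPKM. DFL2, an amino acid conjugase of the GH3 family, fell by 1.09 ± 0.31 and lost its call without ground control plate 3 (−0.83) or spaceflight plate 3 (−0.99).

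Of 11 genes annotated as wall proteins, 6 were called higher (54.5%) and 3 lower (27.3%), against 58.1% and 16.4% over all genes. PME17, a pectin methylesterase induced by pathogens, measured 0.27, 0.11 and 0.060 FPKM on the ground and 2.56, 2.45 and 12.5 FPKM in spaceflight. EXT3, a structural extensin, rose from 161 ± 6.47 to 361 ± 127 FPKM, and EXPA5, an expansin of growing leaves, fell from 32.1 ± 3.09 to 14.9 ± 8.22 FPKM. Both lost their calls without spaceflight plate 3, at 0.84 for EXT3 and −0.89 for EXPA5. EGC2, counted in this group by its annotation, is a natriuretic peptide of defence and not a wall protein.

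The genes were selected for a difference between these same plates, so agreement in direction was largely fixed by the selection, and the sizes in single plates are given as a description. Relative to the ground control mean, 603 of 608 genes in spaceflight plate 1 and all 608 in plates 2 and 3 had the sign of the group difference. A 2-fold or larger difference was reached in all 3 spaceflight plates by 238 genes, in 2 by 207, in 1 by 110 and in none by 53. For genes that were higher, the median difference was 1.01 in plate 1, 1.21 in plate 2 and 1.64 in plate 3, and for genes that were lower −1.03, −1.10 and −1.19. Plate 3 was the farthest from the ground control for 435 genes and plate 1 the nearest for 382. Among the ground control plates, plate 1 lay farthest from the spaceflight mean for 323 genes. The division held more for rising than for falling genes, since of 446 higher genes plate 3 was highest in 350 (78.5%), and of 162 lower genes it was lowest in 85 (52.5%).

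**Figure D3:**
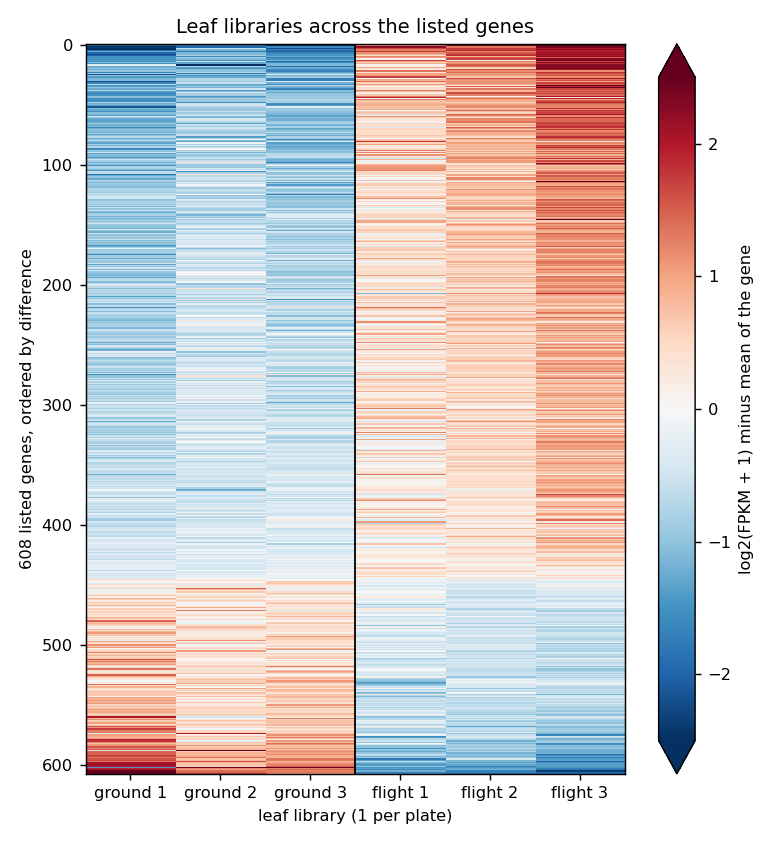
Value of each leaf library minus the gene's mean over the 6 libraries on log2(FPKM + 1) for the 608 genes, as rows ordered from the largest rise to the largest fall, with the 6 libraries as columns and colours that saturate at 2.5 in either direction. The sign turns between ground control and spaceflight columns along the table, and of the genes that rose the deepest red lies in spaceflight plate 3.

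Among these selected genes, spread within groups was modest for most. The range over 3 plates on log2(FPKM + 1) had a median of 0.71 in spaceflight and 0.55 in ground control, and it was at least 1 for 176 genes in spaceflight and 98 in ground control. Across the 608 genes, which are not independent replicates and share their library, Pearson's r between plates was 0.936 to 0.973 within spaceflight, 0.950 to 0.967 within ground control and 0.664 to 0.845 between groups. The first principal component held 85.5% and the second 5.46% of the variance among the 6 libraries. The genes were chosen by a test on these same libraries, which favours small spread within groups and a large difference between them. The ranges, the r values and the component shares are therefore descriptions of the selected genes only. In spaceflight, the widest ranges belonged to OSM34, STR15, NIT2 and PDF1.2C, given above, and to TPS8 and TPS11. In ground control they belonged to CPuORF21, which is at 0.05 FPKM in ground control plate 1 and all spaceflight plates, and to GSTU24, SQE5, AT5G22140, PCR1 and AT5G14730. SQE5, a squalene epoxidase-like gene, measured 40.0, 6.58 and 11.9 FPKM on the ground and 4.12, 6.02 and 6.48 FPKM in spaceflight, with ground control plate 1 high. AT5G22140 lost its call without ground control plate 2, at −0.99. PCR1, a plasma membrane cadmium resistance protein, measured 23.6, 4.26 and 12.4 FPKM on the ground and 30.7, 83.3 and 137 FPKM in spaceflight and varied in both groups without overlap.

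**Figure D4:**
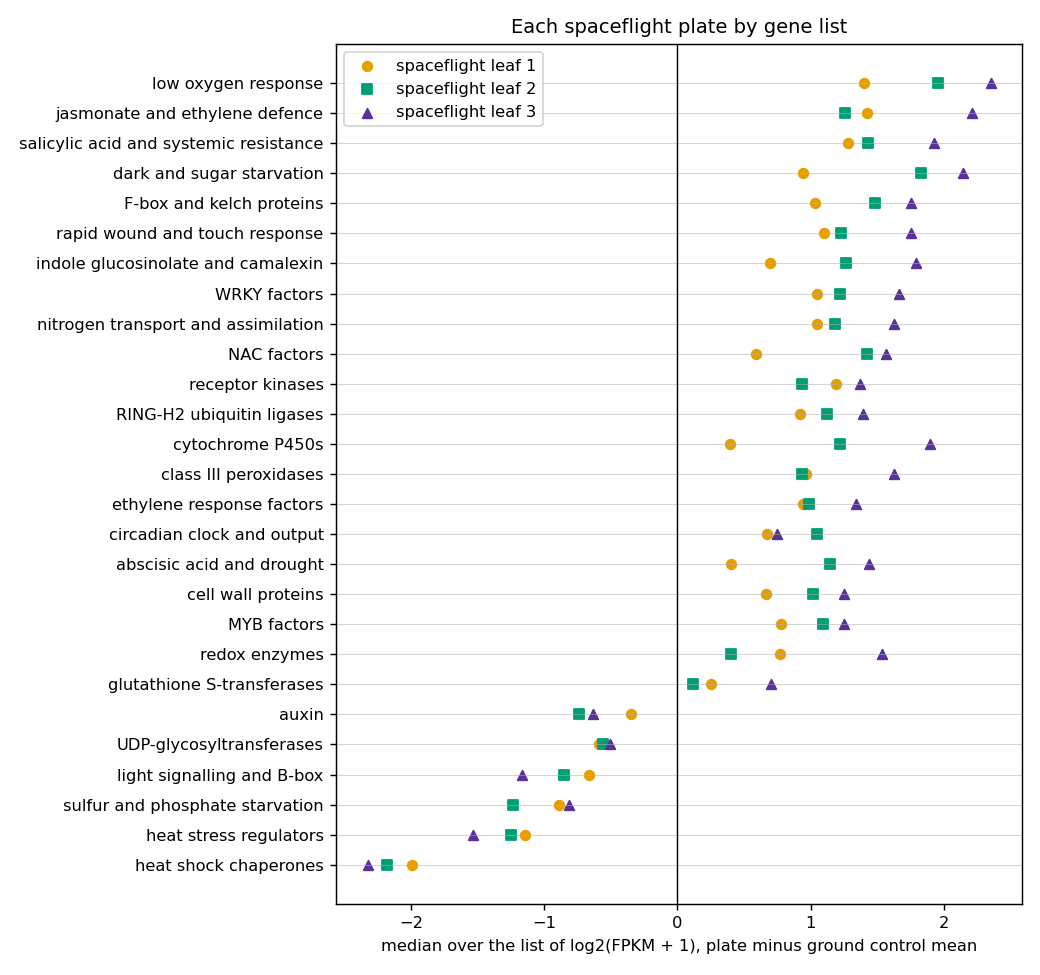
Median difference from the ground control mean on log2(FPKM + 1) over the listed members of each gene group, with 1 point for each spaceflight plate. Groups of at least 4 listed genes are drawn. Plate 3 lies farthest from 0 for most groups, though not for clock, auxin, sulfur and phosphate or UDP-glycosyltransferase genes, and the dark and sugar starvation group runs from 0.94 in plate 1 to 2.15 in plate 3.

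Leaving out 1 library at a time moved calls most for spaceflight plate 3 and ground control plate 1. Without spaceflight plate 3, 97 of the 453 calls were lost, and without ground control plate 1, 80 were lost. Leaving out another library lost 16 to 35. In all, 297 genes kept their call without any single library, 236 of them higher and 61 lower, and no called gene changed direction. Among the genes that lost it, SQE5 lay at −0.62 without ground control plate 1, and was also lost without spaceflight plate 1 (−1.13) or 3 (−1.41). RAP2-3, an oxygen-related ethylene response factor, lay at 0.97 without ground control plate 1. AT1G60730, an aldo-keto reductase, fell under 2-fold at 0.97 without spaceflight plate 3.

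Overlapping genes limit some values. The labels and the paper describe different library kits, and the kit of the labels keeps no strand. On the opposite strand, 116 of the 608 genes overlap another gene, among the genes named here SARD1, CHI-B, AT3G15450, RFS6, BGAL4, AMT1-1, SAT4, BBX20, RVE1, AT5G64170, BOA, CLPB1, MBF1C, ADH1, GSTF2, CYP81D11, GOLS1, DFL2, CML12, EXT3 and AT5G22140. On the same strand 20 genes overlap another, and GSTU17 is 1 of them. Reads from such partners could not be told apart without strand.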

How the data were processed

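The authors' read processing used FastQC, Trimmomatic, STAR against TAIR10, and RSEM for gene values. Tool versions are not given in the sources read. The deposited leaf table gives 1 FPKM value a library, rounded to 2 decimals. Its unit was inferred, since dividing the authors' mean CPM by it gave a ratio that followed gene length (Spearman's rho of 0.793 across 606 genes, which are not independent). The authors' mean CPM was used only there. The deposited log2 fold changes, p-values and q-values come from the authors' edgeR comparison of the same libraries and were not used. The authors' filters were CPM above 5 in at least 3 libraries, an FDR under 0.05 and a 2-fold change.

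limma 3.58.1 (R 4.3.3) was run on log2(FPKM + 1) of the 6 leaf libraries, without filter or further normalization, and was tested on simulated data. Counts were not used here, so depth is unknown, and p-values are adjusted over 608 selected genes. Gene groups (19 by locus, 12 by annotation words) covered 274 genes. The members and lists were chosen with earlier results of these data known, and a word list for DETOXIFICATION transporters, which had matched 1 wrong gene, was dropped after its values were seen. Genes to check were picked by rule: the 8 largest rises and falls, and up to 4 called members and all members without a call in each list. The 6 widest ranges in each group and 8 calls lost without 1 library were added. Not all genes so picked are described above, and several of the largest rises and falls are left out. The genes described are therefore not the most changed ones of the table. Other genes were named after their values were seen. Replicate numbers did not pair the plates: same-numbered libraries deviated together with r of 0.169, 0.187 and −0.0347. Promoters, gene positions and coding sequences came from RefSeq's TAIR10.1 annotation, in which 602 listed genes had a promoter. A result on 1 promoter sequence is not reported here.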

Additional observations from a re-analysis of the deposited data

How the results depend on the processing

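No called gene turned direction when 1 library was left out, and GSTU25, which was not called, did. Against 353 genes called higher and 100 lower, a pseudocount of 0.1 gave 436 and 129, a minimum mean of 1 FPKM 352 and 100, and a fit on all 12 libraries or with a mean-dependent prior 354 and 100. With the replicate number as a block, 354 and 100 were called, which included all 453 calls made without it, and no other call changed. Leaving out 1 library gave 275 to 371 higher and 90 to 113 lower. Genes without overlap then numbered 414 to 437 higher and 144 to 157 lower. With a pseudocount of 0.1, calls rose from 2 to 4 heat stress regulators, from 4 to 8 redox enzymes, from 7 to 11 receptor kinases, and from 0 to 1 for root and for guard cell markers, and 317 genes in place of 238 reached 2-fold in all spaceflight plates, an alternative chosen after seeing the data.

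Called members without 1 library ranged from 3 to 7 for indole glucosinolate and camalexin genes, from 2 to 4 for sulfur and phosphate genes, from 5 to 8 for abscisic acid genes, from 3 to 6 for WRKY factors, from 4 to 7 for NAC factors, from 2 to 4 for MYB factors and from 3 to 6 for class III peroxidases. By direction, lower calls of ethylene response factors went from 2 to 1 without ground control plate 2 or spaceflight plate 2 and to 4 without spaceflight plate 1. Nitrogen genes called lower went from 0 to 2 without ground control plate 2 or 3, and auxin genes called lower from 3 to 5 without spaceflight plate 1. GSTU25, not called at −0.55, ranged from −0.89 to 0.0742 without 1 library and turned sign without ground control plate 2 (limma adjusted p = 0.828). The cause of these changes was not tested. Depth is unknown, so counting error at low FPKM could not be given, and with no unchanged gene listed another scaling between libraries could not be tried.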

Other observations

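Groups not described so far include ubiquitin ligase and kelch genes. Some of their members were counted above, so these counts are not separate from the earlier ones. AT1G80440, SKIP20 and ATL8 are also in the starvation group, and AT3G27220 is in the low oxygen group. AUF1 and AUF2 are in the auxin group, and ATL31 is in the wound and touch group. Of 12 F-box and kelch genes listed, 11 were called higher (91.7%, against 58.1% over all genes) and 1, AUF1, lower. AT1G23390, a kelch-repeat F-box protein that controls flavonoid synthesis, measured 28.3, 49.7 and 42.9 FPKM in ground control plates and 84.3, 280.3 and 273 FPKM in spaceflight plates, so that plate 1 was the lowest of the spaceflight libraries and still above the ground. AT1G15670, another kelch F-box gene, rose by 2.21 ± 0.32 (SE). Of 10 RING-H2 ligases listed, 7 were called higher (70%, against 58.1% over all genes) and 0 lower, ATL13 lay at −0.93 without a call, and 5 were called without ground control plate 3 or spaceflight plate 3. RHA1B rose evenly, at 21.6, 25.7 and 27.3 FPKM on the ground and 96.8, 106 and 116 FPKM in spaceflight.

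Receptor kinases all lay higher in spaceflight, without overlap in 12 of 12 genes. Over all genes, 68.1% were higher without overlap, and 91.8% did not overlap in either direction. Of the kinases, 7 were called higher (58.3%, against 58.1% over all genes). AT1G56120, a leucine-rich repeat kinase, measured 4.47, 2.43 and 2.82 FPKM on the ground and 16.9, 10.2 and 14.2 FPKM in spaceflight. CRK4, a cysteine-rich receptor-like kinase, rose by 1.52 ± 0.32 and IOS1, a kinase of pattern-triggered immunity, by 1.21 ± 0.31. These levels are low, and the counts behind them are unknown. Of 6 class III peroxidases listed, 5 were called higher (83.3%, against 58.1% over all genes) and 0 lower. Without ground control plate 1 or spaceflight plate 3, 3 were called. ERF034, a transcription factor of the DREB subfamily, went the other way, at 20.8, 17.6 and 32.5 FPKM on the ground and 11.2, 4.9 and 3.25 FPKM in spaceflight. Other groups were smaller or mixed. Over all genes, 58.1% were called higher and 16.4% lower. Of 6 WRKY factors listed, 5 were called higher (83.3%) and 0 lower, and WRKY70, WRKY54 and WRKY22 were also counted in earlier groups. Of 10 ethylene response factors 6 were called higher (60%) and 2 lower (20%). MYB factors gave 3 higher (50%) and 1 lower (16.7%) of 6. Both are near the shares over all genes. Redox enzymes gave 3 higher (37.5%) and 1 lower (12.5%) of 8, and heat stress regulators 0 higher and 2 lower (50%) of 4.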
